A study of Mus musculus with 12 samples.

Results

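Transcripts of 10 genes by which macrophages recognise and bind apoptotic cells were followed in RNA-seq of murine bone marrow–derived macrophages (BMDMs). The genes were taken by name: the receptors Mertk, Axl, Stab1, Timd4, Trem2 and Msr1, the adapter Tyrobp, and the bridging molecules Gas6, Pros1 and Mfge8. All 10 had a line among the 34327 genes of the table, 9 reached a mean of at least 1 TPM (transcript abundance corrected for length and scaled to a fixed total per library) and were tested, and Timd4 was listed at 0 in each of the 12 libraries. The BMDMs were wild-type C57BL/6J cells grown from marrow in medium conditioned by L929 cells, so every group shared that source of growth factor. They were embedded in 3D gels of rat tail collagen I at 2 mg/ml (low collagen) or 7 mg/ml (high collagen), or were kept on tissue culture (TC) plates. Each culture was left untreated or received IL-4, a type 2 cytokine, at 20 ng/ml, and the labels give 24 hours. This gave 6 conditions with 2 libraries each, and the question behind the gels was whether macrophages read the state of the extracellular matrix while they respond to IL-4. The low- and high-collagen gels differ in stiffness and pore size together, and TC plates differ from gels in shape, substrate and handling, so these features cannot be told apart.

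Efferocytosis is the uptake of dying cells by phagocytes. Apoptotic cells expose phosphatidylserine, which some receptors bind directly and others bind through soluble bridging molecules that hold the lipid with one end and the receptor with the other. Mertk and Axl are receptor tyrosine kinases of the TAM family and use Gas6 as a bridge, and Mertk also uses Pros1, while Mfge8 links the lipid to αv integrins. Uptake by macrophages is followed by digestion of the cell corpse and by a shift toward repair functions.

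The libraries carried the markers of their labelled cell type. All 7 macrophage markers examined (Adgre1, Csf1r, Cd68, Itgam, Fcgr1, Lyz2 and Cd14) were present, and their summed level moved with the conditions. Most of the sum was Lyz2, at 13223 to 48901 TPM, while the others had medians from 50.5 (Fcgr1) to 2223 TPM (Cd68). The sum thus mainly follows 1 gene. It was 27941 to 28551 TPM on untreated TC plates, 43249 to 46028 TPM in untreated low-collagen gels and 53744 to 53880 TPM in untreated high-collagen gels. With IL-4 it was lower in each culture, at 17502, 30659 to 31869 and 35687 to 37655 TPM in the same order, and the part of this sum in the results was not tested. Markers of fibroblasts (1 of 8 at a mean of 1 TPM or more) and dendritic cells (0 of 6) each summed to at most 3.01 TPM in any library. The IL-4 labels matched the data: Retnla was at 0 to 6.52 TPM in the 6 untreated libraries and at 110 to 9073 TPM in the 6 with IL-4, Arg1 was at 1.76 to 46.3 and 3069 to 7958 TPM, and Mrc1 was at 327 to 404 and 766 to 1380 TPM. Log-scale values of replicates correlated at 0.980 to 0.985. The labels do not say whether replicates came from separate animals or cultures, so p-values measure only the spread between these libraries. TPM values are scaled to a common total (999658 to 999723 TPM per library) and keep no read number, so depth is unknown and no counting interval can be given.

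The bases in front of the transcription start are shown for 6 of the genes. Of these, 4 were lower with IL-4 by limma (Mertk, Axl, Stab1 and Gas6), Mfge8 was higher and Pros1 was not called. Each is the 250 bases before the RefSeq start in build GRCm38.p6, read 5′ to 3′ on the strand of the gene, with capitals marking any match to 7 short motifs. For Mertk, Axl and Gas6 the RefSeq start lies upstream of the start in the GENCODE gene positions given further on.
Mertk, chr2:128698665-128698914, plus strand: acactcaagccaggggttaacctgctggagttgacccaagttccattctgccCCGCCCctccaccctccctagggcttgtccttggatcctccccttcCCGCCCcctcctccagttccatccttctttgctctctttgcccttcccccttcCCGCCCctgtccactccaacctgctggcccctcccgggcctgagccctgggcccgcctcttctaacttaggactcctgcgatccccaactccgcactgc
Axl, chr7:25788734-25788983, minus strand: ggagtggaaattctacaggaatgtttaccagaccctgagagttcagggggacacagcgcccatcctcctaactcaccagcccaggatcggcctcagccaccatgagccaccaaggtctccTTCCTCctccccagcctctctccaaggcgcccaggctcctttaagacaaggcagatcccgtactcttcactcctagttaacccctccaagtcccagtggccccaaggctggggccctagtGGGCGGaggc
Stab1, chr14:31168642-31168891, minus strand: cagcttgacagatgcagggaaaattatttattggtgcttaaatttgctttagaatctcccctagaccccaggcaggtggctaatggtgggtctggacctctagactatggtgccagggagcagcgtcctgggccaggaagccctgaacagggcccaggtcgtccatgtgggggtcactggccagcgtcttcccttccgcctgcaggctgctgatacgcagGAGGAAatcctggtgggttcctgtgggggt
Gas6, chr8:13494536-13494785, minus strand: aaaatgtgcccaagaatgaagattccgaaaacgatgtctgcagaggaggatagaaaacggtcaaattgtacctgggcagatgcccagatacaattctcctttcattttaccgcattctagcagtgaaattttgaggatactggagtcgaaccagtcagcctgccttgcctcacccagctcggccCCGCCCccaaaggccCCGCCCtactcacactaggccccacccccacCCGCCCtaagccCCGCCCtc
Mfge8, chr7:79149061-79149310, minus strand: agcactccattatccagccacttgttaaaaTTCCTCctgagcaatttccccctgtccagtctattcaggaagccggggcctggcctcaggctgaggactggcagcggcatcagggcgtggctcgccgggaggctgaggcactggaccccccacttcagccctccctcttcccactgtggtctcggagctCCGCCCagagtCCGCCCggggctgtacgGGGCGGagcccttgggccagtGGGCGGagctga
Pros1, chr16:62854057-62854306, plus strand: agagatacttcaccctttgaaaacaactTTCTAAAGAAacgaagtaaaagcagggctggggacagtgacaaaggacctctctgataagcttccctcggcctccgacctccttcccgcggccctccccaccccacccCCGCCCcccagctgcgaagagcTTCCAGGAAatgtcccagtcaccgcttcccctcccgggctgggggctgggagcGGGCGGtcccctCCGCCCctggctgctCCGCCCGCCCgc

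The motifs were searched on both strands in 32851 RefSeq promoters of the same length. This set leaves out the promoters of a whole chromosome that holds none of the members, so the shares do not cover all of RefSeq. They were the STAT6 site TTCNNNNGAA (in 5.85% of promoters), the STAT site with a shorter spacer TTCNNNGAA (7.02%), the PU.1 core GAGGAA (23.3%), the AP-1 site TGANTCA (6.75%), the C/EBP site TTGCNNAA (9.56%), the GC box GGGCGG (32.7%) and the E-box CACGTG (6.02%). STAT6 is the transcription factor activated by the IL-4 receptor, and PU.1 is the lineage factor of macrophages. Of the 8 members with an entry in the promoter table, Pros1 alone held a STAT6 match (its first base at −222 from the start) and a match to the shorter-spaced STAT site (at −92), together with 5 GC boxes. Mertk held 3 GC boxes and Gas6 4, Axl held 1 PU.1 core and 1 GC box, Stab1 held 1 PU.1 core, and Mfge8 held 1 PU.1 core and 4 GC boxes. Trem2 held 1 PU.1 core and 1 AP-1 site, and Timd4 held none of the 7 motifs. A match is a stretch of letters and not a measured site of binding. Tyrobp and Msr1 had no entry.

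Mertk (GRCm38 chr2:128698956-128802894, plus strand) encodes a TAM receptor that is a main route of apoptotic cell uptake in macrophages. On TC plates it stood at 42.2 and 46.5 TPM untreated and at 40.6 and 40.1 TPM with IL-4. In low-collagen gels it stood at 88.1 and 105 TPM untreated and at 60.1 and 48.6 TPM with IL-4. In high-collagen gels the values were 77.7 and 78.9 TPM untreated and 51.3 and 53.2 TPM with IL-4. Untreated gels were the highest and TC plates the lowest, and the only neighbours in the order of the 6 means whose libraries overlapped were the 2 kinds of gel with IL-4.

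Axl (chr7:25757273-25788705, minus strand) encodes a TAM receptor associated with inflamed tissue. Untreated libraries held 28.9 and 30.7 TPM on TC plates, 33.3 and 34.6 TPM in low-collagen gels and 51.6 and 48.7 TPM in high-collagen gels. Treated libraries held 7.36 and 9.12 TPM on TC plates, 16.2 and 12 TPM in low-collagen gels and 30.3 and 29.9 TPM in high-collagen gels. They lay below the untreated libraries of the same culture without overlap, and high-collagen gels with IL-4 stood at the level of untreated TC plates. Axl had a wide range for its level, with its highest library at 7.01 times its lowest.

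Stab1 (chr14:31139013-31168641, minus strand) encodes stabilin 1, a scavenger receptor that binds phosphatidylserine. It was abundant, at 706 and 730 TPM on untreated TC plates, 726 and 736 TPM in untreated low-collagen gels, and 426 and 317 TPM in untreated high-collagen gels. With IL-4 it was at 449 and 470 TPM on TC plates, 294 and 312 TPM in low-collagen gels and 193 and 186 TPM in high-collagen gels. High-collagen gels were below low-collagen gels with and without IL-4, while untreated TC plates and untreated low-collagen gels overlapped. The untreated high-collagen libraries were the most spread of this gene, with an SD of 77.1 TPM, against at most 17.2 TPM in the other conditions.

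Msr1 (chr8:39581685-39642673, minus strand) encodes the class A scavenger receptor, which takes up modified lipoproteins and also apoptotic cells. It divided the libraries by culture: TC plates held 429 and 413 TPM untreated and 275 and 262 TPM with IL-4. Low-collagen gels held 60.4 and 95.4 TPM untreated and 79.9 and 57.8 TPM with IL-4, and high-collagen gels held 91.4 and 76.4 TPM untreated and 85.7 and 92.9 TPM with IL-4. The 8 gel libraries lay between 57.8 and 95.4 TPM, below all 4 TC libraries, and gel conditions next to each other in the order of means overlapped.

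Trem2 (chr17:48346401-48354147, plus strand) encodes a receptor for lipids and lipoproteins that has no signalling domain and works through the adapter DAP12, the product of Tyrobp. TC plates held 868 and 927 TPM untreated and 948 and 874 TPM with IL-4. Low-collagen gels held 1542 and 1323 TPM untreated and 1513 and 1624 TPM with IL-4, and high-collagen gels held 1222 and 1265 TPM untreated and 1313 and 1310 TPM with IL-4. Gels were above TC plates in every library, and the libraries with and without IL-4 overlapped on TC plates and in low-collagen gels.

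Tyrobp (chr7:30413760-30417585, plus strand) was the most abundant member, with rank 31 by mean TPM among 11865 genes. It stood at 2248 and 2214 TPM on untreated TC plates and at 1782 and 1652 TPM on TC plates with IL-4. Low-collagen gels held 3094 and 2897 TPM untreated and 3068 and 3394 TPM with IL-4, and high-collagen gels held 2969 and 3043 TPM untreated and 3281 and 3129 TPM with IL-4. Gels were again above TC plates throughout. Timd4 (chr11:46810800-46844332, plus strand), which encodes the direct phosphatidylserine receptor of some resident macrophages, was listed at 0 in all libraries, and a listed 0 can be a failed estimate.

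Gas6 (chr8:13465374-13494490, minus strand) encodes the ligand of the TAM receptors that bridges them to phosphatidylserine. On TC plates it was at 499 and 504 TPM untreated and at 374 and 360 TPM with IL-4. Low-collagen gels held 687 and 711 TPM untreated and 343 and 361 TPM with IL-4, and high-collagen gels held 649 and 609 TPM untreated and 456 and 428 TPM with IL-4. Untreated gels were the highest, and low-collagen gels with IL-4 were the lowest together with TC plates with IL-4, from which they did not separate.

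Pros1 (chr16:62854307-62929346, plus strand) encodes protein S, the other bridging ligand of Mertk and a cofactor of anticoagulation. It was the lowest of the expressed members, between 15.1 and 21.1 TPM in all 12 libraries, and most neighbouring conditions overlapped. Mfge8 (chr7:79133768-79149060, minus strand) encodes the secreted bridge to αv integrins. Mfge8 was at 60.2 and 61.7 TPM on untreated TC plates, 71.7 and 62.5 TPM in untreated low-collagen gels and 61.2 and 66.1 TPM in untreated high-collagen gels. With IL-4 it was at 72.6 and 75.7 TPM on TC plates, 115 and 114 TPM in low-collagen gels and 98.3 and 103 TPM in high-collagen gels. Every treated library was above every untreated one, across cultures as well as within them.

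**Figure D1:**
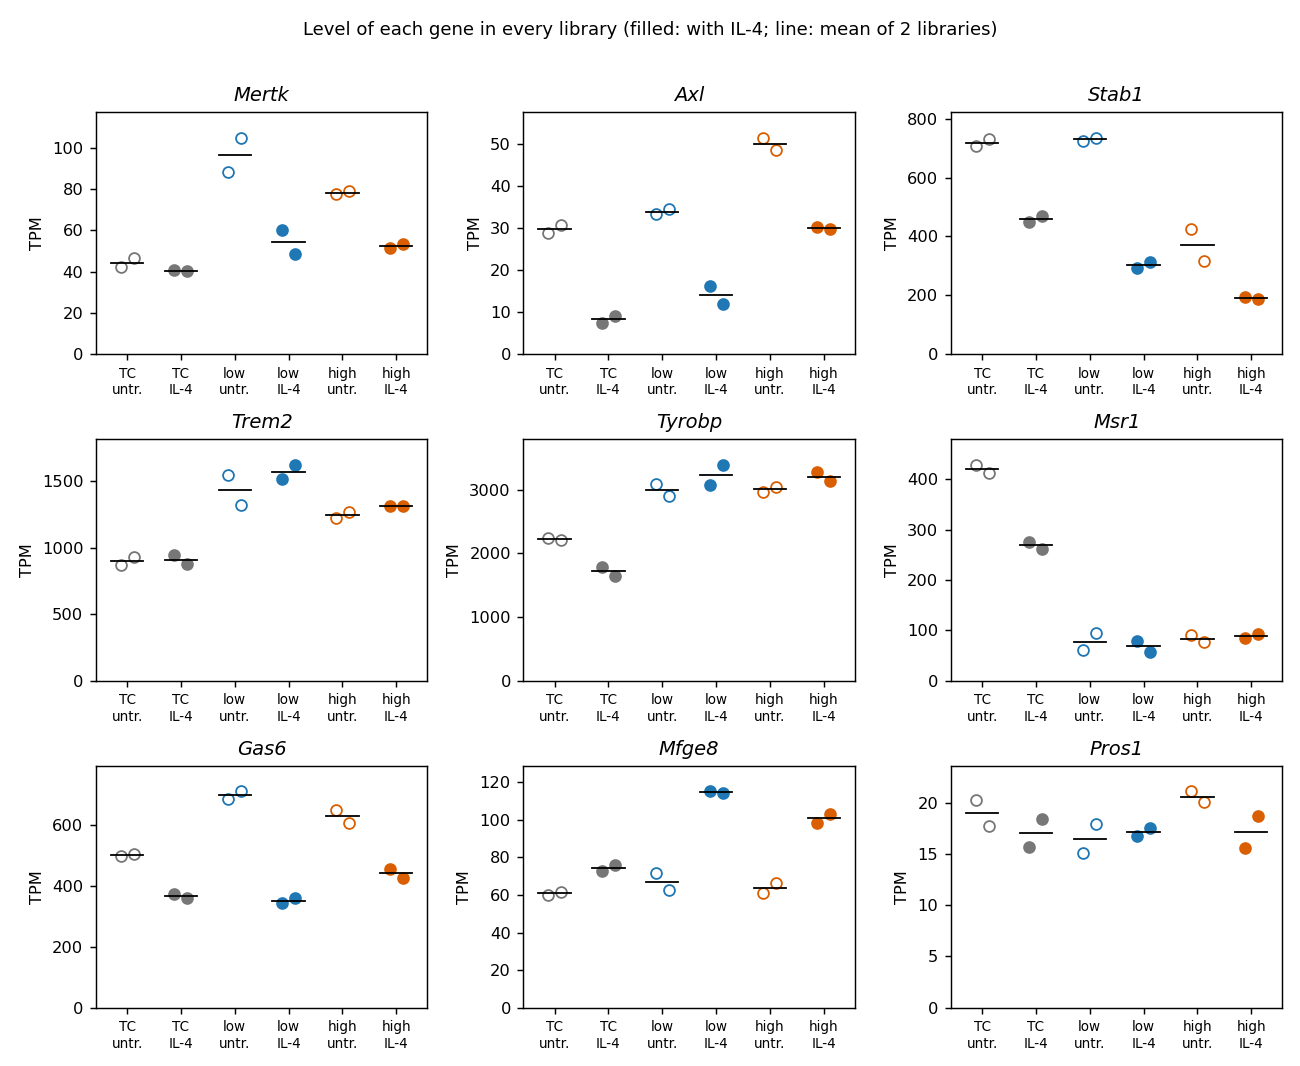
Level in TPM of the 9 expressed members in each of the 12 libraries, with a panel per gene, the 6 conditions on the horizontal axis (TC plates, low- and high-collagen gels, untreated or with IL-4), open circles for untreated libraries, filled circles for IL-4 and a line at the mean of 2 libraries. Filled circles lie below open ones in each culture for Axl, Stab1 and Gas6 and above them for Mfge8. Msr1 lies at 413 to 429 TPM on untreated TC plates and at 262 to 275 TPM on TC plates with IL-4. In gels with and without IL-4 it lies at 57.8 to 95.4 TPM.

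IL-4 was accompanied by lower Axl, Stab1 and Gas6 and by higher Mfge8 in all 3 cultures, and by lower Mertk in both gels. Averaged over the cultures, Axl fell the furthest of the members, with a difference of −1.23 on the log2(TPM + 1) scale (SE 0.0773, 2.34-fold lower). Stab1 was at −0.95 (SE 0.0631, 1.94-fold lower), Gas6 at −0.65 (SE 0.0315, 1.57-fold lower) and Mertk at −0.51 (SE 0.064, 1.42-fold lower). Mfge8, the only one of these 5 genes that rose, was at 0.57 (SE 0.0436, 1.48-fold higher). In this bulk RNA, fewer cells that express a gene and less of its RNA per cell cannot be told apart. The adjusted p of limma was at most 1.46e-04 for these 5 genes and at most 0.000838 under any alternative processing. A second test, which permutes the IL-4 labels within each culture and shares no spread with other genes, gave p = 0.00926 for each of the 5 among 9 members tested (exact permutation test, two-sided, 216 labelings), the smallest p it can give. The libraries with and without IL-4 did not overlap in 3 of 3 cultures for these 5 genes.

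By limma, 8 of the 9 tested members were called in the averaged comparison at an adjusted p under 0.2, the threshold of the study, where 64.0% of 11865 genes were called. The remaining 3 calls were small: Msr1 at −0.24 (SE 0.115, adjusted p = 0.119), Trem2 at 0.08 (SE 0.0436, adjusted p = 0.174) and Tyrobp at −0.06 (SE 0.0353, adjusted p = 0.197). These 3 calls were not stable. The permutation test gave p = 0.167, 0.111 and 0.435 (adjusted over the 9 members to 0.214, 0.167 and 0.435). None was under the 0.05 used for that test, although the adjusted value of Trem2 was under 0.2. The Trem2 difference turned to −0.11 after quantile normalization and that of Tyrobp to 0.07 after rescaling by the median ratio. Without 1 library at a time the call of Msr1 was lost in 5 cases (adjusted p 0.2 to 0.287), that of Trem2 in 7 (0.243 to 0.391) and that of Tyrobp in 8 (0.223 to 0.432). Pros1 was not called (−0.12, SE 0.0734, adjusted p = 0.22).

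Within single cultures the called members differed in part, with Msr1 and Tyrobp called on TC plates and Mertk in gels. On TC plates 6 of 9 members were called, 1 higher and 5 lower, against 38.8% of 11865 genes (14.7% higher and 24.0% lower). The largest fall was that of Axl, at −1.74 (SE 0.134, 3.34-fold lower, adjusted p = 1.15e-05), and the only rise was that of Mfge8, at 0.28 (SE 0.0755, adjusted p = 0.0244). Stab1 (−0.64, SE 0.109), Msr1 (−0.65, SE 0.199), Gas6 (−0.45, SE 0.0545) and Tyrobp (−0.38, SE 0.0612) were also lower, with adjusted p from 2.41e-04 to 0.0428. Mertk, at −0.13 (SE 0.111, adjusted p = 0.457), was not called on TC plates. These 6 calls held in each of the fits that left out a library.

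In low-collagen gels 5 of 9 members were called, 1 higher and 4 lower, against 53.6% of 11852 genes (13.2% higher and 40.4% lower). The members that fell were Stab1 (−1.27, SE 0.122, adjusted p = 2.50e-04), Axl (−1.22, SE 0.129, adjusted p = 4.02e-04), Gas6 (−0.99, SE 0.0615, adjusted p = 2.64e-05) and Mertk (−0.82, SE 0.119, adjusted p = 0.00186). Mfge8 rose, by 0.77 (SE 0.0845, adjusted p = 4.92e-04). On this scale the treated libraries held 0.505 times the Gas6 and 0.566 times the Mertk of untreated ones. The median over all genes was also below 0 here, at −0.19. After rescaling by the median ratio, which brings it to 0.00, 8 members were called, 4 higher (Mfge8 with Trem2 at 0.34, Tyrobp at 0.32 and Pros1 at 0.26) and 4 lower. The count was 8 as well without untreated low-collagen replicate 1.

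In high-collagen gels 5 of 9 members were called, 1 higher and 4 lower, against 34.3% of genes (11.5% higher and 22.8% lower). Falls were called for Stab1 (−0.95, SE 0.122, adjusted p = 0.00159), Axl (−0.72, SE 0.129, adjusted p = 0.0082), Mertk (−0.57, SE 0.119, adjusted p = 0.015) and Gas6 (−0.51, SE 0.0615, adjusted p = 0.00124). Mfge8 rose by 0.65 (SE 0.0845, adjusted p = 0.00169). The median of the 9 members was −0.26 here, −0.16 in low-collagen gels and −0.38 on TC plates, beside −0.10, −0.19 and −0.06 for all genes tested. Markers of osteoclasts, which arise from the same precursors, moved with IL-4 in every culture: their summed level was 3.42 to 8.92 TPM untreated and 16.5 to 31.4 TPM with IL-4 (2 of 4 markers at a mean of 1 TPM or more, Calcr at 0). Endothelial markers (1 of 4) were lower with IL-4 in every culture, at 5.69 to 5.76 and 2.8 to 3.72 TPM on TC plates, 1.04 to 1.59 and 0.796 to 0.822 TPM in low collagen, and 1.2 to 1.29 and 0.794 to 1.05 TPM in high collagen. Neutrophil and precursor markers (3 of 7) were lower with IL-4 in low collagen, at 24.4 to 33.6 and 15 to 22 TPM. The part of these markers in the IL-4 results was not tested.

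**Figure D2:**
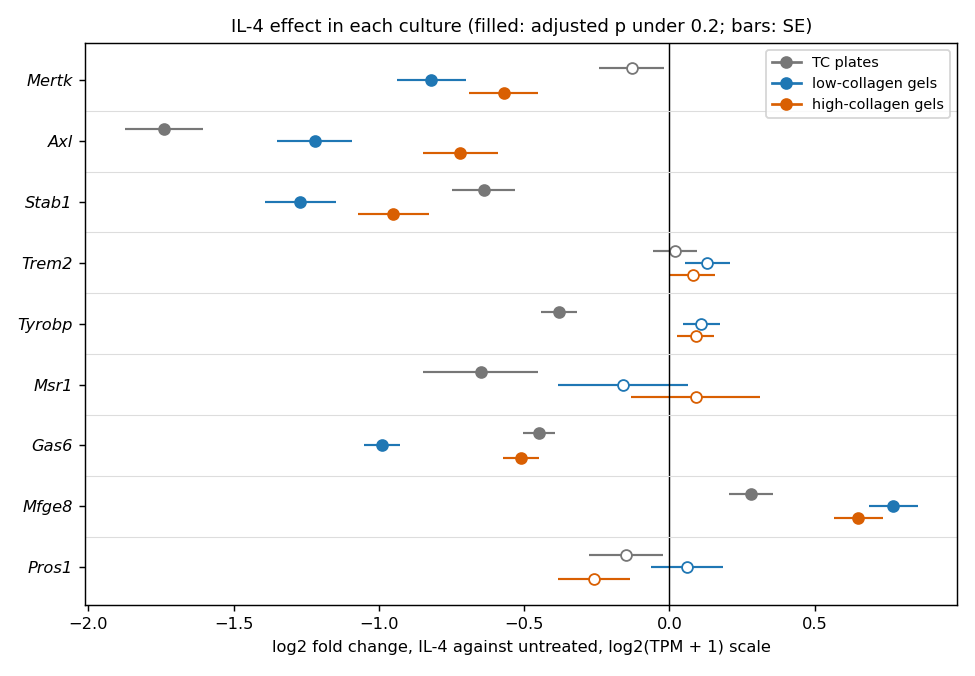
Difference between IL-4 and untreated on the log2(TPM + 1) scale (horizontal axis) for each of the 9 members in TC plates, low- and high-collagen gels, with bars for the standard error and filled symbols where the limma adjusted p was under 0.2. Axl, Stab1 and Gas6 lie to the left of 0 and Mfge8 to the right in all 3 cultures, and the Axl values run from −1.74 on TC plates to −0.72 in high-collagen gels.

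The IL-4 response itself differed between gels and TC plates for several members. The response in low-collagen gels minus that on TC plates was called for 6 of 9 members against 28.0% of genes. It was lower in the gels for Mertk (−0.69, SE 0.157, adjusted p = 0.0224), Stab1 (−0.63, SE 0.155, adjusted p = 0.032) and Gas6 (−0.54, SE 0.0771, adjusted p = 0.00252). It was higher in the gels for Axl (0.52, SE 0.189, adjusted p = 0.118), Mfge8 (0.49, SE 0.107, adjusted p = 0.019) and Tyrobp (0.49, SE 0.0865, adjusted p = 0.00744). For Axl this means a smaller fall in gels, and for Mertk, Stab1 and Gas6 a deeper one. The Axl call was lost without untreated TC replicate 2 (adjusted p = 0.254), IL-4 TC replicate 1 (0.28) or IL-4 low-collagen replicate 1 (0.269).

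In high-collagen gels the response differed from that on TC plates for 5 of 9 members against 17.3% of genes. Axl had the largest difference, at 1.03 (SE 0.189, adjusted p = 0.0113). Msr1, whose fall with IL-4 was called on TC plates and not in either gel, was at 0.74 (SE 0.282, adjusted p = 0.171). Tyrobp was at 0.47 (SE 0.0865, adjusted p = 0.0111), Mfge8 at 0.37 (SE 0.107, adjusted p = 0.0734) and Mertk at −0.44 (SE 0.157, adjusted p = 0.14). The calls of Msr1 and Mertk were each lost without 7 of the 8 compared libraries in turn (adjusted p 0.259 to 0.357 and 0.221 to 0.336), the exceptions being untreated high-collagen replicate 1 for Msr1 and untreated TC replicate 2 for Mertk. That of Mfge8 was lost without untreated high-collagen replicate 1 (0.201), and Stab1 was called without untreated high-collagen replicate 2 (−0.52, adjusted p = 0.0109). Both sets of differences use the same TC libraries.

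Ratios within a library do not depend on scaling between libraries. Since TPM are per transcript length, they also compare one gene with another. Axl stood below Mertk in all 12 libraries, at 0.685 and 0.66 of its level on untreated TC plates and at 0.181 and 0.227 with IL-4. In low-collagen gels the ratio was 0.378 and 0.329 untreated and 0.269 and 0.248 with IL-4, and in high-collagen gels it was 0.664 and 0.617 untreated and 0.592 and 0.562 with IL-4. The balance of the TAM receptors was thus lower for Axl with IL-4 in each culture, with no overlap, although the untreated low-collagen libraries already stood far below the other untreated ones. The mean IL-4 difference was −0.78 on the log2 scale (exact permutation test within cultures, two-sided, p = 0.00926, adjusted over 3 ratios to 0.0139). The fall was deepest on TC plates and smallest in high-collagen gels, so this mean does not describe each culture.

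Gas6 exceeded Pros1 in every library. The ratio was 24.6 and 28.4 on untreated TC plates, 45.5 and 39.7 in untreated low-collagen gels and 30.8 and 30.2 in untreated high-collagen gels. With IL-4 it was 23.9 and 19.6, 20.4 and 20.7, and 29.2 and 23 in the same order. It was lower with IL-4 in all 3 cultures, by 0.53 on the log2 scale on average (exact permutation p = 0.00926, adjusted 0.0139), and the adjusted p was 0.0556 without untreated TC replicate 2 or without IL-4 TC replicate 2. The ratio of Trem2 to Tyrobp was 0.386 and 0.419 on untreated TC plates and 0.532 and 0.529 with IL-4, and it overlapped between treated and untreated libraries in both gels. Its mean difference of 0.14 did not pass the threshold of 0.05 used for the permutation tests (exact permutation p = 0.148, adjusted 0.148).

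**Figure D3:**
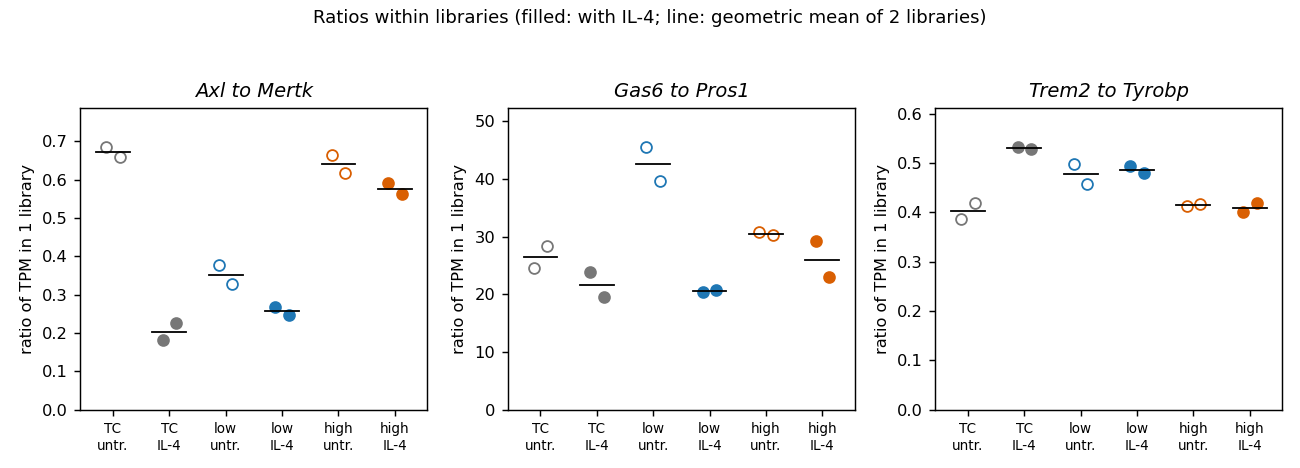
Ratio of TPM within each library for Axl to Mertk, Gas6 to Pros1 and Trem2 to Tyrobp (vertical axis, from 0) in the 6 conditions, open for untreated, filled for IL-4, with a line at the geometric mean of 2 libraries. The Axl to Mertk ratio falls from 0.66 and 0.685 to 0.181 and 0.227 on TC plates, and the Gas6 to Pros1 ratio is highest in untreated low-collagen gels at 39.7 and 45.5.

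Fewer members were called for collagen concentration than for IL-4 in gels, and the same was true of all genes. Collagen was called for 8.02% of them untreated and 21.1% with IL-4, against 53.6% and 34.3% for IL-4 in low- and high-collagen gels. In untreated gels, 2 of 9 members were called for high against low collagen, where 8.02% of 11852 genes were. Stab1 was lower in high-collagen gels, at −0.99 (SE 0.122, 1.99-fold lower, adjusted p = 0.0301), and Axl was higher, at 0.55 (SE 0.129, 1.46-fold, adjusted p = 0.108). The Axl call was lost without any of the 4 compared libraries (adjusted p 0.25 to 0.323) and without a filter on low values (0.202), whereas that of Stab1 held under every alternative, with adjusted p up to 0.137. Mertk (−0.30, SE 0.119), Gas6 (−0.15, SE 0.0615), Trem2 (−0.20, SE 0.0768) and Pros1 (0.31, SE 0.124) had adjusted p from 0.269 to 0.29.

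Among gels that received IL-4, 4 of 9 members were called for collagen, against 21.1% of genes. Axl was higher in high-collagen gels by 1.06 (SE 0.129, 2.08-fold, adjusted p = 0.0101) and Gas6, its ligand, by 0.33 (SE 0.0615, 1.25-fold, adjusted p = 0.0314). Mertk, which also uses Gas6 as a bridge, was at −0.05 (SE 0.119, adjusted p = 0.842). Stab1 (−0.67, SE 0.122, 1.59-fold lower, adjusted p = 0.0288) and Trem2 (−0.26, SE 0.0768, 1.2-fold lower, adjusted p = 0.103) were lower. The call of Trem2 was lost without IL-4 low-collagen replicate 2 (adjusted p = 0.374), IL-4 high-collagen replicate 1 (0.257) or replicate 2 (0.314). The calls of Axl, Gas6 and Stab1 held under every alternative, with adjusted p up to 0.162. Mertk, Msr1, Mfge8, Pros1 and Tyrobp were not called. Other markers also moved with collagen. Osteoclast markers were at 4.75 to 5.49 TPM in low and 8.28 to 8.92 TPM in high collagen untreated, and at 23.4 to 23.8 and 28.7 to 31.4 TPM with IL-4. Untreated, neutrophil and precursor markers were at 24.4 to 33.6 and 15 to 19.4 TPM, and dendritic cell markers at 1.96 to 2.57 and 1.21 to 1.31 TPM. Their part in the collagen results was not tested.

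A collagen-by-IL-4 interaction term asked whether the response to the cytokine differed from gel to gel, and it was called for 1 of 9 members against 0.363% of genes. This was Gas6, at 0.48 (SE 0.0869, adjusted p = 0.191), whose IL-4 difference was −0.99 at low and −0.51 at high collagen. The call was lost when any one of the 8 gel libraries was left out (adjusted p 0.267 to 0.418), and the adjusted p was 0.0623 to 0.462 over all alternatives. Axl had a difference of the same size (0.51) with a wider error (SE 0.183, adjusted p = 0.456), which did not pass the threshold.

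**Figure D4:**
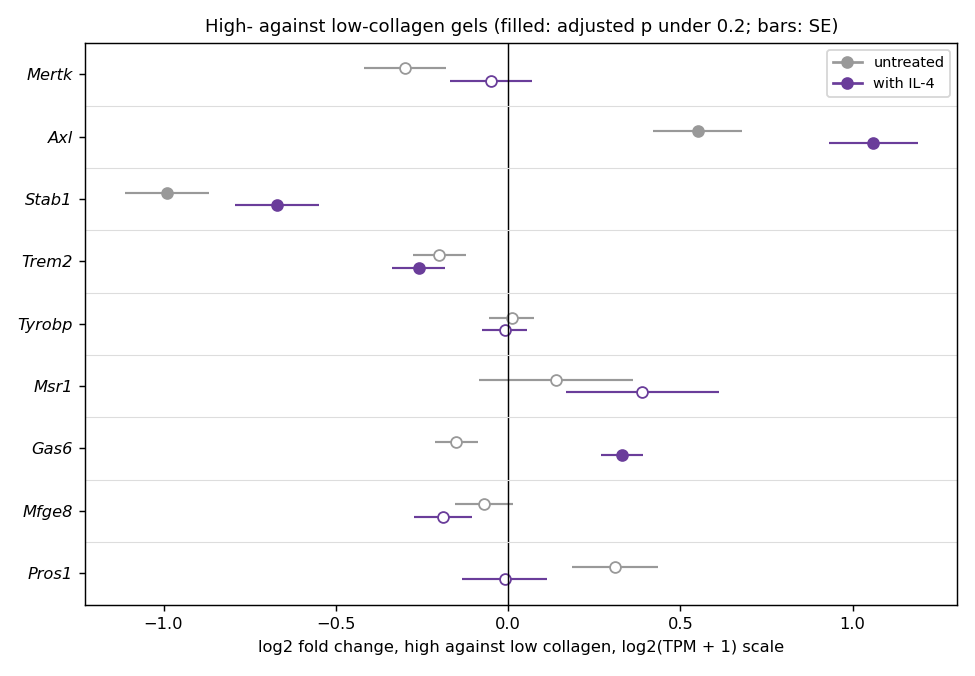
Difference between high- and low-collagen gels on the log2(TPM + 1) scale (horizontal axis) for each of the 9 members, untreated (grey) and with IL-4 (purple), with bars for the standard error and filled symbols where the limma adjusted p was under 0.2. Stab1 lies at −0.99 and −0.67 and Axl at 0.55 and 1.06, while Tyrobp lies at 0.01 and −0.01.

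Gels were set against TC plates with the same IL-4 status. Msr1 was far lower in gels, and Mertk, Trem2 and Tyrobp were higher. Msr1 was at −2.45 in untreated low-collagen gels (SE 0.199, 5.48-fold lower, adjusted p = 4.41e-06) and at −2.32 in untreated high-collagen gels (SE 0.199, 4.99-fold lower). After IL-4 its differences were −1.97 and −1.58. Mertk rose by 1.10 and 0.81 untreated and by 0.41 and 0.36 with IL-4 (SE 0.111), Trem2 by 0.67, 0.47, 0.78 and 0.53 in the same order (SE 0.0756), and Tyrobp by 0.42, 0.43, 0.91 and 0.90 (SE 0.0612). These 4 genes were called in all 4 comparisons, with adjusted p of at most 0.0162.

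The other members depended on the condition. Stab1 was not called between untreated low-collagen gels and TC plates (0.03, SE 0.109, adjusted p = 0.852) and was lower in the other 3 comparisons, at −0.96 in untreated high-collagen gels and, with IL-4, at −0.60 in low and −1.27 in high collagen. Axl was at 0.18 (adjusted p = 0.264) in untreated low-collagen gels and rose by 0.73, 0.70 and 1.76 in the other 3 comparisons, the last being 3.38-fold (SE 0.134, adjusted p = 3.16e-06). Gas6 rose by 0.48 and 0.32 untreated and by 0.27 in high collagen with IL-4, and was at −0.06 (adjusted p = 0.374) in low collagen with IL-4. Mfge8 rose by 0.62 and 0.43 with IL-4 and by 0.13 in untreated low-collagen gels (adjusted p = 0.157), a call that was lost without either untreated TC replicate (0.359 and 0.236) or without untreated low-collagen replicate 1 (0.721). Pros1 was not called in any of the 4 comparisons.

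Counts of called members were near the share of all genes called. In untreated gels 6 of 9 were called for low collagen (72.8% of genes) and 7 of 9 for high collagen (73.5%). With IL-4 the counts were 7 of 9 (75.1%) and 8 of 9 (74.6%). By direction, 5, 5, 5 and 6 members were higher and 1, 2, 2 and 2 lower. Among all genes, 28.5%, 28.0%, 22.8% and 26.5% were higher and 44.3%, 45.5%, 52.2% and 48.1% lower, with medians of −0.13, −0.16, −0.28 and −0.20. Rescaling by the median ratio brought those medians to between 0.01 and 0.02 and raised the members called higher to 7 in each comparison. Gas6 then turned to 0.26 in low collagen with IL-4 (adjusted p = 0.0109). Neutrophil and precursor markers also moved with the culture, with a summed level of 4.95 to 10.1 TPM on TC plates and 14.3 to 33.6 TPM in gels (3 of 7 markers at a mean of 1 TPM or more, Ly6g at 0), and so did endothelial markers, at 2.8 to 5.76 TPM and 0.794 to 1.59 TPM (1 of 4). With IL-4, osteoclast markers were at 16.5 to 16.8 TPM on TC plates and 23.4 to 31.4 TPM in gels. Their part in the results was not tested.

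**Figure D5:**
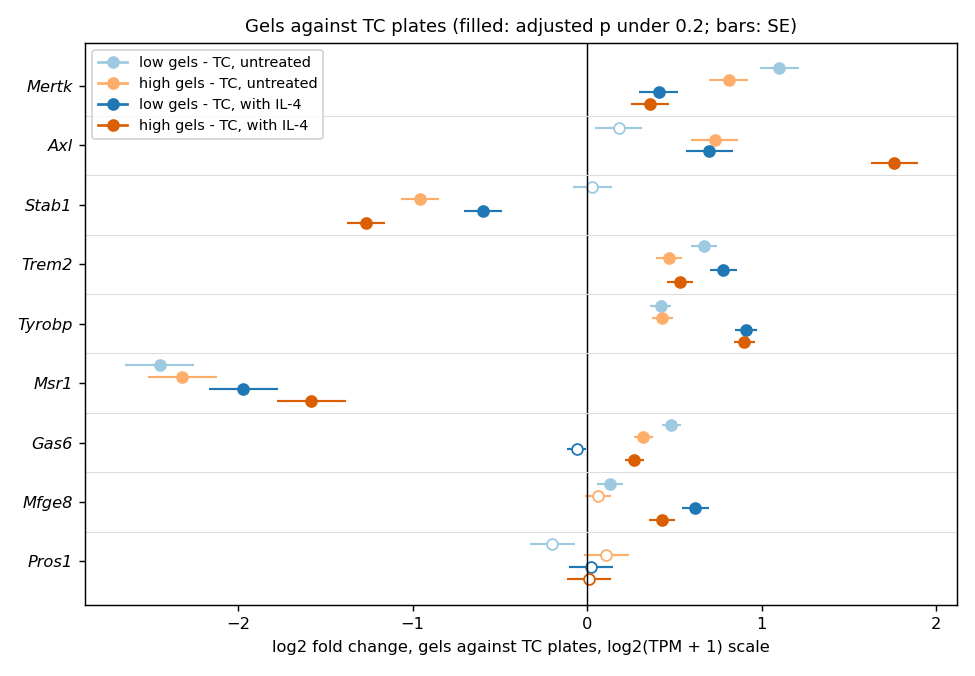
Difference between gels and TC plates on the log2(TPM + 1) scale (horizontal axis) for each of the 9 members, in low- and high-collagen gels, untreated and with IL-4, with bars for the standard error and filled symbols where the limma adjusted p was under 0.2. Msr1 lies between −2.45 and −1.58, and Mertk, Trem2 and Tyrobp lie to the right of 0 in all 4 comparisons.

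Another 78 genes that act before, with or after the members were followed in 7 lists, and 71 of them reached a mean of 1 TPM. In the averaged IL-4 comparison 18 of the 71 were higher, 45 lower and 8 not called, with a median of −0.22 beside −0.12 for all genes. Of all genes, 64.0% were called in this comparison, which is the share to set beside the count of each list. Among 13 other receptors for apoptotic cells, 4 were higher and 9 lower. Itgb3, a β subunit of the integrin that Mfge8 binds, rose by 3.02 (SE 0.0509). Lower levels were called for Cd14, a coreceptor for lipopolysaccharide that also tethers apoptotic cells (−2.14, SE 0.0445), and for the scavenger receptor Marco (−1.49, SE 0.0955). Of 7 other bridging molecules and opsonins, 3 were higher and 4 lower. Thbs1, which encodes a thrombospondin, was at −2.30 (SE 0.0682), annexin A1 (Anxa1) rose by 0.73 (SE 0.0356) and calreticulin (Calr) rose by 0.61 (SE 0.0455).

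Downstream of the receptors, 2 of 11 genes of the engulfment machinery were higher and 8 lower with IL-4, among them the lipid exporter Abca1 (−1.10, SE 0.0569), the Rac activator subunit Elmo1 (−0.56, SE 0.0738) and the exchange factor Vav1 (−0.53, SE 0.04). Of 10 genes of TREM and DAP12 signalling, 1 was higher and 8 lower, with Trem1 at −1.57 (SE 0.103), Clec5a at −0.70 (SE 0.0605) and Apoe, a lipid ligand carrier, at −0.68 (SE 0.0355). The list of LC3-associated phagocytosis had 1 of 11 higher and 7 lower, with the oxidase subunit Cybb at −1.01 (SE 0.0656), Rubcn at −0.48 (SE 0.0568) and Rab5a at −0.25 (SE 0.0564). Of 11 transcription regulators of efferocytosis genes, 3 were higher and 6 lower. The nuclear receptor Pparg rose by 1.61 (SE 0.101) and Klf4 by 2.49 (SE 0.0742), and Maf was lower, at −0.98 (SE 0.0492). The last list, of receptors for find-me signals, do-not-eat-me signals and sheddases, had 4 of 8 higher and 3 lower. The fractalkine receptor Cx3cr1 (−4.39, SE 0.0929), the sphingosine phosphate receptor S1pr1 (−1.30, SE 0.0429) and the sheddase Adam17, which can cleave Mertk (−0.32, SE 0.0393), were lower. All of these named genes had a limma adjusted p of at most 0.00509.

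For high against low collagen in the presence of IL-4, 21 of 70 listed genes were higher, 5 lower and 44 not called, against 21.1% of all genes called, with a median of 0.16 beside 0.06 for all genes. Thbs1 rose by 1.59 (SE 0.126, adjusted p = 0.00347), Cx3cr1 by 0.96 (SE 0.174, adjusted p = 0.0293), S1pr1 by 0.86 (SE 0.0805, adjusted p = 0.00658), Cd14 by 0.67 (SE 0.0859, adjusted p = 0.0121) and the lipid receptor Cd36 by 0.64 (SE 0.0896, adjusted p = 0.0146). Stab2, the paralog of Stab1, was lower, at −1.32 (SE 0.233, adjusted p = 0.0263), as Stab1 was. Smaller rises were called for Syk, the kinase recruited by DAP12 (0.37, SE 0.0668), the lipoprotein Apoe (0.25, SE 0.0652), Gpr132 (0.49, SE 0.125), Vav3 (0.57, SE 0.17), Abca7 (0.40, SE 0.131), Rubcn (0.36, SE 0.109), Cybb (0.32, SE 0.121), Atg12 (0.24, SE 0.0834) and Rxrb (0.31, SE 0.0843). Anxa1 (−0.30, SE 0.0712), Calr (−0.25, SE 0.0898) and Dock2 (−0.22, SE 0.0786) were lower. The calls named from Syk to Dock2 had a limma adjusted p from 0.0293 (Syk) to 0.168 (Cybb). Whether calls of the listed genes hold without a library was not tested. Untreated, 8 of 70 were higher and 2 lower (8.02% of all genes called), and the interaction was called for 2 (0.363%).

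The genes whose log2(TPM + 1) over the 12 libraries was most like that of each member were named as a description, by Pearson correlation among 9661 genes with a mean of at least 5 TPM. The 12 libraries form 6 conditions, so such values mostly compare patterns over conditions. Clk1 (0.984) and Kctd12b (0.975) were most like Mertk, Card19 (0.980) and Bmt2 (0.974) like Axl, and Trim26 (0.950) and BC017643 (0.947) like Stab1. Wdr76 (0.996) and Atad2 (0.993) followed the fall of Msr1 in gels. Trem2 was most like Gabarap (0.989) and Hes6 (0.980), and Tyrobp most like Sqor (0.987) and N4bp3 (0.985). Among the bridging molecules, Gas6 was most like Gdpd1 (0.979) and Ndfip1 (0.978), and Mfge8 most like Rpl3 (0.983) and Cd63 (0.980). The best match of Pros1 was weaker, with Gm15501 at 0.838, and its highest library was 1.4 times its lowest.

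Reads of the members could be assigned to them with little ambiguity. In GENCODE models of GRCm38, words of 31 bases shared with other genes made up 1.66% of Stab1, 0.278% of Gas6, at most 0.0625% of Trem2 and Msr1, and 0 of the words of the other 6. Exons of Gas6 overlap those of Tmem255b on the opposite strand over 34 bases, and exons of Stab1 overlap those of Nt5dc2 over 112 bases. The kallisto options stated in the methods include none for strand.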

How the data were processed

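The deposited file is a table of TPM per gene and library. The authors made it from stranded mRNA libraries (Illumina TruSeq, NextSeq, paired reads of 38 bases) quantified with kallisto 0.46.1 on the Ensembl GRCm38 transcriptome, per the labels and the methods of the study. How transcripts were summed to genes is not given in the sources used here. The authors' own test used Sleuth, which needs kallisto's estimates of uncertainty, not analysed here. A value shared between similar transcripts rests on the division of reads by kallisto, and TPM are relative within a library.

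Of 34456 lines, 129 repeated lines were removed, leaving 34327 genes. Values were taken as log2(TPM + 1), and fold changes on this scale understate the change of genes with few transcripts. The limma package 3.58.1 in R 4.3.3 fitted 1 mean per condition with variances moderated along a trend with mean level, and p-values were adjusted by Benjamini-Hochberg over all genes with a mean of at least 1 TPM. The 8 gel libraries gave the comparisons between gels (11852 genes), and all 12 gave those with TC plates and the averaged IL-4 effect (11865 genes). Genes were called by limma at an adjusted p under 0.2, and permutation tests were held to an adjusted p under 0.05. Two-sided exact permutation of 2 libraries against 2 cannot go below p = 0.33, so it was run within the 3 cultures together. No pair of libraries had identical values (0 pairs).

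The members, the pathway and marker lists and the motifs were chosen with earlier results of these data known. All members were named in each comparison. From each pathway list up to 3 called genes with the largest change and a mean of at least 5 TPM were named. The alternatives tried were a filter at 5 TPM or none, a pseudocount of 0.1, no trend, median-ratio and quantile scaling, a replicate block, adjusted p under 0.05, other libraries in the fit, a ratio of TPM + 1 and each library left out. Promoters are from RefSeq (GRCm38.p6, 8 of 10 members matched) and gene positions from GENCODE M21.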

Additional observations from a re-analysis of the deposited data

Results flagged for a closer look

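A difference in the IL-4 response between cultures was called by limma for 12 results over 7 members. Between low-collagen gels and TC plates these were Mertk (−0.69), Stab1 (−0.63), Gas6 (−0.54), Axl (0.52), Mfge8 (0.49) and Tyrobp (0.49), as log2 differences of the response on the log2(TPM + 1) scale. Between high-collagen gels and TC plates they were Axl (1.03), Msr1 (0.74), Tyrobp (0.47), Mertk (−0.44) and Mfge8 (0.37). Between the gels it was Gas6 alone, at 0.48, a call that was lost without any one of the 8 gel libraries. The first 2 sets share the TC libraries, on which Axl had its deepest fall with IL-4. Msr1 and Tyrobp were called lower with IL-4 on TC plates and were not called in either gel. Groups of 2 libraries are too small for a test of outlying samples.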

How the results depend on the processing

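Of 117 results on single members, 85 kept their side of the threshold under all alternatives run, and their direction wherever a call was made. Over 2304 recomputed values, 2155 did so, 92 lost a call and 54 gained one, and 80 of these lost or gained calls came from leaving out a library. The other 3 turned in direction with a call in the original or the recomputed value. They were Trem2 in the averaged IL-4 comparison with quantile normalization (−0.11), Tyrobp there with median-ratio rescaling (0.07) and Gas6 in low collagen against TC plates, both with IL-4, after median-ratio rescaling (0.26). Changes of sign between uncalled values were not counted. For example, Mertk for high against low collagen with IL-4 ran from −0.20 to 0.10 without 1 library.

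The members called with IL-4 in low-collagen gels went from 5 to 8 with median-ratio rescaling and were 5 to 8 without 1 library. The averaged IL-4 count went from 8 to 5 without a filter and to 5 at an adjusted p under 0.05, and was 5 to 8 without 1 library, the lowest without untreated high-collagen replicate 1. Between untreated gels the count of 2 was 1 without a filter, 4 with quantile normalization, 1 at an adjusted p under 0.05 and 1 to 2 without 1 library. The interaction count of 1 was 0 with a pseudocount of 0.1, without a filter, without the trend, with either rescaling, with the replicate block, at an adjusted p under 0.05 and without any gel library (0 to 0), and 1171 genes had an unadjusted p under 0.05. The response in high-collagen gels minus TC plates went from 5 members to 3 without a filter, to 2 at an adjusted p under 0.05 and to 3 to 5 without 1 library. The Gas6 to Pros1 difference was −0.58 to −0.47 without 1 library.

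Replicate numbers showed no strong pairing of the libraries: deviations of same-numbered libraries correlated at −0.123 to 0.109 over 15 pairs of conditions. Such a check cannot exclude a pairing with small effects. With the replicate block the calls of Tyrobp in the averaged IL-4 comparison (adjusted p = 0.221), Gas6 in the interaction (0.329) and Msr1 in the response in high-collagen gels minus TC plates (0.21) were lost. The permutation test with paired swaps has 64 labelings and a smallest p of 0.0312. After adjustment 0 members were under the 0.05 used for permutation tests, where 5 were without pairing. However, 5 members at that smallest p would stay above 0.05 after adjustment over all members tested. The change from 5 to 0 therefore cannot tell whether pairing matters. In other cases the cause was not tested. Depth is unknown, so small differences of Pros1 and Axl cannot be set against counting error.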
